A study of Mus musculus with 45 samples.

Results

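Wnt signalling was followed through 10 of the 28454 genes counted across 45 RNA libraries from cultured mouse mammary tumour lines. The ligand genes were Wnt10a, Wnt9a and Wnt4, the ubiquitin ligase genes of the receptor were Znrf3 and Rnf43, the feedback genes were Axin2 and Nkd1, and the nuclear side was represented by Tcf7, Lef1 and Ctnnb1. Each was found by its symbol, and every one of the 10 was listed. The set was chosen on measured values, since Axin2 read low in the lines of the Myc310 lineage and Wnt10a read differently in a line labelled NDI1. Those values are therefore given as a description without a test.

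The study compared cell lines of differing metastatic ability and their need for cysteine and cystine. MYAZ16.1e, MYAZ12.3i and MYAZ6.6g were isolated from mammary tumours of MMTV-cMYC mice, in which a mouse mammary tumour virus promoter drives Myc, and Myc310 came from another such mouse that carried several tumours. LM1, LM2 and LM3 were recovered from lungs of mice whose fat pads had received Myc310 cells, and LM1-LM, LM2-LM and LM3-LM from lungs after fat-pad injection of LM1 cells. Myc310 and these 6 derivatives, all descended from 1 line, are called the Myc310 lineage here. The labels also list MYAZ12_3i_NDI1, written MYAZ12.3i_NDI1 here, which is not described further in the sources used here. All 11 lines were sampled in control medium, and MYAZ16.1e, Myc310, LM1 and LM1-LM also after 6 h in medium free of cysteine and cystine, with 3 cultures in each of the 15 groups. The submitters call the cultures of a line technical replicates, so p-values of the comparisons between lines or media measure the spread between cultures of a line. Those between subtypes also hold the spread between the lines of a subtype, whose cultures are not independent samples of it.

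In canonical Wnt signalling, a secreted Wnt ligand binds Frizzled and LRP5 or LRP6, the destruction complex built on AXIN is held back, and beta-catenin enters the nucleus to act with TCF and LEF factors. AXIN2, NKD1, ZNRF3 and RNF43 are induced by the pathway in many tissues and restrain it, AXIN2 in the destruction complex, NKD1 on Dishevelled, and ZNRF3 and RNF43 by removing Frizzled from the cell surface. In the mammary gland WNT4 acts downstream of progesterone in side branching, and WNT10A and related ligands are known from the developing gland bud and skin appendages.

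The libraries held 19517859 to 29019988 counts on genes, and values are given as counts or as CPM, the counts scaled to library size after TMM normalization over the 45 libraries. A group with 3 counts or fewer in each library was treated as at the floor, which corresponds to 0.102 to 0.155 CPM. Keratin genes of simple epithelium were high in every library (Krt8 4840 to 41357 counts, Krt18 2147 to 12984 counts), whereas the adhesion genes that define epithelium were close to absent (Epcam 0 to 21 counts, Cdh1 0 to 6 counts). The leukocyte gene Ptprc stood at 0 to 5 counts. Of the 5 endothelial markers, Pecam1 stood at 0 to 6 counts, but the summed level of the list was 3.57 to 7.08 CPM in the MYAZ control libraries and 0.0938 to 0.953 CPM in those of the lineage. These ranges did not overlap, and Kdr, a receptor of VEGF, gave 72 to 160 counts in the former and 0 to 6 in the latter. The part of these markers in the differences of Wnt4 and Tcf7 between the MYAZ lines and the lineage was not tested. The macrophage-associated gene Cd68 reached 71 to 456 counts. The summed level of the leukocyte list was 4.17 to 6.31 CPM in the MYAZ control libraries and 9.43 to 19.7 CPM in those of the lineage, also without overlap. The part of this list in those differences was not tested either.

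Promoter windows of 300 bases, from 250 bases before to 50 after an annotated start, were taken from RefSeq (GRCm38.p6) for the members whose levels the results turn on. The table held 14 windows for 8 of the 10 members, and Wnt10a and Znrf3 were not matched. Axin2 is shown because it defined the set, Wnt4 and Tcf7 because they separated the groups of lines, and Wnt9a because it moved under deprivation. Capitals mark an E-box, CACGTG, the element bound by MYC with MAX.
Axin2, chr11:108920099-108920398, + strand: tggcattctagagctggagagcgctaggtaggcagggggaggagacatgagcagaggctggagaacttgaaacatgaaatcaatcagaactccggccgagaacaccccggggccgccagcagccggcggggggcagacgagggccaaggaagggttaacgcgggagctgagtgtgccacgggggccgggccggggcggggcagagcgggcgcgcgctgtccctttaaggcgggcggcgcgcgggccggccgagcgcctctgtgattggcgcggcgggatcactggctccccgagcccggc
Wnt4, chr4:137277385-137277684, + strand: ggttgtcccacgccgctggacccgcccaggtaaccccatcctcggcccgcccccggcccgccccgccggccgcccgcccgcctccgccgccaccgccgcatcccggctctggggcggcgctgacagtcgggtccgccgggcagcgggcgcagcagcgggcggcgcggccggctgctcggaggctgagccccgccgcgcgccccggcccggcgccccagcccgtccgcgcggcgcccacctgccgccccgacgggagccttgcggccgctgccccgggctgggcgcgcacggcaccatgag
Tcf7, chr11:52282965-52283264, - strand: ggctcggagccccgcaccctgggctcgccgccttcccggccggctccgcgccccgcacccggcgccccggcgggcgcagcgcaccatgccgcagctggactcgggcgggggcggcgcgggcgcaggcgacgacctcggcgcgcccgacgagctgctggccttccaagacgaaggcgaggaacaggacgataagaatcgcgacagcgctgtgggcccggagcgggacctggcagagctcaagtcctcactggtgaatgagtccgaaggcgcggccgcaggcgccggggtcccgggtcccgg
Wnt9a, chr11:59306680-59306979, + strand: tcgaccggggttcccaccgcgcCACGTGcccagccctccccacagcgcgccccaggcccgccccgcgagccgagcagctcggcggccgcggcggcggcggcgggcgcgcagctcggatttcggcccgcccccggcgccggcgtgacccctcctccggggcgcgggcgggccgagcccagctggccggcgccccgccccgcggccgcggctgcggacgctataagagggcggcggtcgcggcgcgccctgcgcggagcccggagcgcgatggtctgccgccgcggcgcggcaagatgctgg
These 4 windows were rich in G and C, at 70.0% for Axin2, 84.3% for Wnt4, 76.3% for Tcf7 and 83.3% for Wnt9a, against a median of 52.7% over the 32851 windows of the table. They held 31, 51, 45 and 58 CG dinucleotides, against a median of 7. A search of both strands covered 3 motifs: the TCF/LEF core CTTTGA, found in 5257 of the 32851 windows, the E-box CACGTG, found in 7.15% of them, and the C/EBP-ATF core TGATGNAA, found in 3.97%. Of the members' windows, the E-box was matched in that of Wnt9a, 228 bases before the start. An internal Lef1 start also matched, with 2 TCF/LEF cores 180 and 120 bases and an E-box 79 bases before it. The windows of Axin2, Wnt4 and Tcf7 held none of these letters, which says only that they are not in these windows.

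Wnt10a differed widely from line to line. Wnt10a lies on chromosome 1 (GRCm38, 74791516 to 74804179, + strand) and encodes a ligand of the canonical branch. In control medium it gave 3, 1 and 0 counts in Myc310, 85, 99 and 112 in LM1, 559, 575 and 566 in LM2, and 141, 192 and 165 in LM3. The second-passage lines gave 148, 159 and 130 counts in LM1-LM, 47, 41 and 43 in LM2-LM, and 268, 244 and 279 in LM3-LM. Each of the 6 lung-derived lines thus stood above the line from which they all descend, and none of their libraries overlapped those of Myc310. Among the MYAZ lines the gene gave 274, 305 and 508 counts in MYAZ16.1e, 123, 128 and 108 in MYAZ12.3i, and 40, 43 and 41 in MYAZ6.6g. MYAZ12.3i_NDI1 gave 414, 467 and 536 counts. In control medium the summed level of 9 fibroblast markers was 1.73 to 2.20 CPM in Myc310. It was 15.6 to 217.5 CPM over the 6 lung-derived lines, also without overlap. Among the MYAZ lines it was lowest in MYAZ16.1e, where Wnt10a was highest. The part of these markers in the Wnt10a values was not tested.

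Ordered by mean CPM in control medium, Wnt10a was highest in LM2 at 24.4 ± 0.435 (SD, n = 3), followed by MYAZ12.3i_NDI1 at 19.2 ± 1.33, MYAZ16.1e at 15.1 ± 1.89 and LM3-LM at 11.4 ± 0.291. LM3 at 6.89 ± 0.911 and LM1-LM at 6.35 ± 0.273 came next, then MYAZ12.3i at 5.08 ± 0.787 and LM1 at 4.70 ± 0.481. LM2-LM at 1.78 ± 0.0347 and MYAZ6.6g at 1.74 ± 0.0673 stood below these, and Myc310 was last at 0.0541 ± 0.0598. The libraries of LM3 and LM1-LM, of MYAZ12.3i and LM1, and of LM2-LM and MYAZ6.6g overlapped within each pair. The order within these pairs is therefore not read, and their differences were not tested. Lines of the lineage and MYAZ lines were interspersed along this order.

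Against Myc310, the summed counts of Wnt10a were 81.8 times higher in LM1 (exact 95% interval 31.6 to 302.2, counting error only), 424.1 times in LM2 (165.4 to 1558) and 119.7 times in LM3 (46.5 to 441.0). The quasi-likelihood test of edgeR covered the 30 control libraries without the NDI1 line. Between the LM subtype and Myc310, Wnt10a was the 1 of 7 tested members called, and 2 of the 7 were at the floor in both groups. Wnt10a was at the floor in Myc310, and the ratios above rest on 4 counts over its libraries. The gene passed the low-count filter through other lines, so no p-value is given for it and nothing is read from the call. Of all 13795 genes tested, 4.94% were called in this comparison. With counts summed per line, where 1 Myc310 sample faced 3 LM samples, the log2 fold change of Wnt10a was 7.67, against 7.60 over cultures, but the call was lost. In that fit 2 of 16017 genes passed. Tcf7 did not pass (2.02 ± 0.64 on the log2 scale; edgeR adjusted p = 0.0660), but passed with DESeq2 (0.00673), without LM1 (0.00866) and without LM2 (0.0148). No member passed between LM-LM and LM by edgeR or DESeq2, and 0 members had an unadjusted p under 0.05 by edgeR. Of all genes, 0.768% were called there. Without LM3, Tcf7 turned from -0.47 to 0.97 in this comparison and passed (edgeR adjusted p = 0.0440). Within the lineage, Wnt10a rose in LM1-LM over LM1 by 0.43 ± 0.13 on the log2 scale (SE, edgeR adjusted p = 0.0206). That call was lost without replicate 1 of every group (adjusted p = 0.162) and without replicate 2 (0.236).

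Wnt6, the neighbouring ligand gene, was compared with Wnt10a after its values were seen. Wnt6 begins at 74771892 and ends at 74785322 on chromosome 1, on the same strand, and 6.19 kb without another annotated gene lie between them. Wnt6 gave 5, 7 and 3 counts in Myc310, 45, 61 and 67 in LM1, 449, 425 and 390 in LM2, and 134, 154 and 130 in LM3. Both genes were lowest in Myc310 and highest in LM2 among the lines of the lineage. Against Myc310, Wnt6 was 12.8 times higher in LM1 (7.52 to 23.3), 84.1 times in LM2 (50.8 to 150.7) and 26.8 times in LM3 (16.06 to 48.3).

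**Figure D1:**
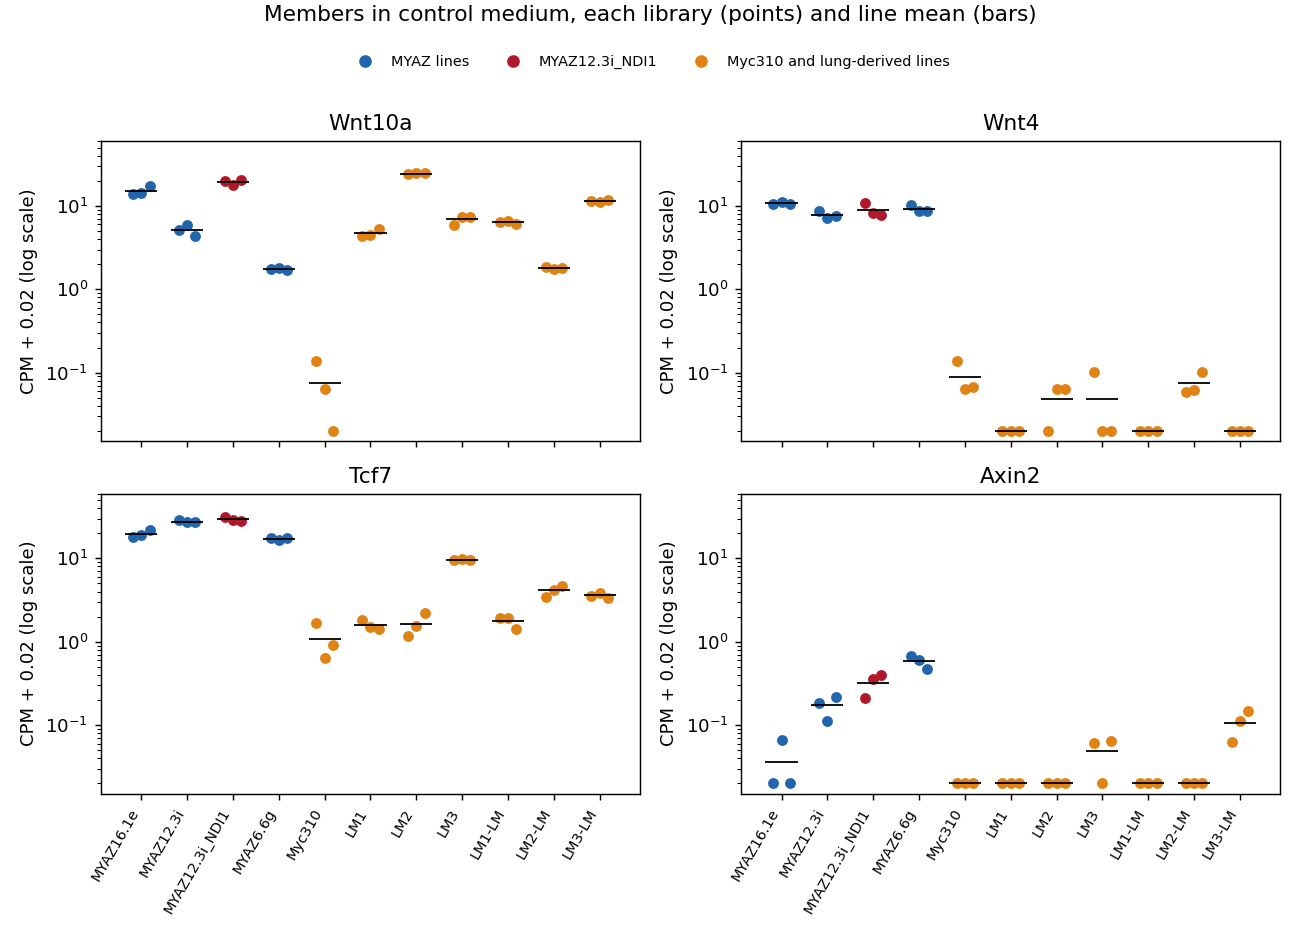
Levels of Wnt10a, Wnt4, Tcf7 and Axin2 in control medium, as CPM plus 0.02 on a log axis, for the 3 libraries of each of 11 lines (points) with the line mean (bars). Wnt4 and Tcf7 separate the MYAZ lines from the Myc310 lineage, whereas Wnt10a and Axin2 do not.

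Wnt4 was near absent from the Myc310 lineage. It lies on chromosome 4 (137277489 to 137299726, + strand). The 9 MYAZ control libraries gave 155 to 308 counts, and the 21 lineage control libraries 0 to 3, with no count in 12 of the 21. By line, Wnt4 stood at 213, 240 and 308 counts in MYAZ16.1e, 209, 155 and 191 in MYAZ12.3i, and 231, 207 and 211 in MYAZ6.6g. Myc310 gave 3, 1 and 1 counts and LM1, LM1-LM and LM3-LM none. Summed over 3 libraries, MYAZ16.1e held 761 counts, against 5 in Myc310 and 0 in LM1. Among the MYAZ lines, Wnt4 was lower in MYAZ12.3i than in MYAZ16.1e by 0.47 ± 0.15 on the log2 scale (edgeR adjusted p = 0.00770), a call lost without replicate 2 (0.0965) or replicate 3 (0.0525).

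Wnt9a was a low-count gene in every line. It lies on chromosome 11 (59306928 to 59333552, + strand), 16.18 kb from Wnt3a, which had 1 count in all 45 libraries. In control medium Wnt9a gave 6, 5 and 9 counts in MYAZ16.1e, 31, 29 and 37 in MYAZ12.3i, 31, 23 and 22 in MYAZ6.6g, and 8, 5 and 9 in Myc310. LM2 stood at 22, 20 and 19 counts and LM3 at 12, 13 and 24. The gene was higher than in MYAZ16.1e by 2.25 ± 0.40 in MYAZ12.3i (edgeR adjusted p = 7.8e-06) and by 1.91 ± 0.41 in MYAZ6.6g (0.000147), as log2 fold changes. Over Myc310 it rose by 1.47 ± 0.41 in LM2 (0.00376) and by 1.11 ± 0.43 in LM3 (0.0322). Leaving out any 1 replicate number ended the LM3 call (adjusted p 0.0756 to 0.232), as did testing without the low-count filter (0.0591), and leaving out replicate 1 ended that of LM2 (0.0584).

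Of the ubiquitin ligase genes, Znrf3 was abundant and Rnf43 scarcely counted. Znrf3 lies on chromosome 11 (5276324 to 5444847, - strand) and had 369 to 1474 counts. In control medium it ranged from 37.3 to 54.0 CPM over the MYAZ libraries and from 29.0 to 38.5 CPM over the lineage, and these ranges overlapped. It was higher than in MYAZ16.1e by 0.44 ± 0.053 in MYAZ12.3i and by 0.22 ± 0.054 in MYAZ6.6g on the log2 scale (edgeR adjusted p = 6.7e-09 and 0.000614). Over Myc310 it was higher in LM1 by 0.16 ± 0.057 (edgeR adjusted p = 0.0324), a call lost without the low-count filter (0.0518) and without replicate 1 (0.0811) or 2 (0.402). Rnf43, on the same chromosome (87662722 to 87735539, + strand), had 44 counts over all 45 libraries and at most 6 in one. These came from 16 of the 21 lineage control libraries, 1 of the 9 MYAZ control libraries, and 0 of the 12 deprived libraries. Rnf43 shares its strand with the annotated gene 1110028F11Rik, and it was too low to be tested.

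The feedback genes Axin2 and Nkd1 were low, at no more than 15 and 6 counts in a library. Axin2 lies on chromosome 11 (108920349 to 108950783, + strand) and had 87 counts in all, with 28 of 45 libraries at 0. It overlaps Gm11670 on the other strand. MYAZ6.6g gave 15, 14 and 11 counts, MYAZ12.3i 4, 2 and 5, and MYAZ16.1e 0, 1 and 0. Myc310, LM1, LM2, LM1-LM and LM2-LM gave none, LM3 gave 1, 0 and 1, and LM3-LM gave 1, 2 and 3. The low level in the lineage was therefore shared by MYAZ16.1e, and the MYAZ and lineage libraries overlapped. A count of 0 in a library allows up to 3 counts, so a lower level than in MYAZ16.1e was not detectable at this depth.

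Among the MYAZ lines, the summed counts of Axin2 were 40 in MYAZ6.6g, 11 in MYAZ12.3i and 1 in MYAZ16.1e. Axin2 passed the low-count filter through MYAZ6.6g and MYAZ12.3i, where it was counted most, so neither a p-value nor an interval is given for it.

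Fibroblast markers were high in the lines with most Axin2 counts. Their summed level in control medium was 399.9 to 416.4 CPM in MYAZ12.3i, 276.8 to 285.7 in MYAZ6.6g, 313.8 to 320.1 in MYAZ12.3i_NDI1 and 12.9 to 16.7 in MYAZ16.1e. In the lineage it was 1.73 to 2.20 CPM in Myc310, 115.6 to 124.6 in LM3 and 215.9 to 217.5 in LM3-LM, and 15.6 to 65.5 in LM1, LM2, LM1-LM and LM2-LM, which had no Axin2 count. The list had 9 genes, of which 3 were at the floor in MYAZ12.3i and MYAZ6.6g and 4 in MYAZ16.1e, with Fap at 0 in all 45 libraries. The summed level of the 9 epithelial markers was lowest in the same lines, at 339.2 to 352.4 CPM in MYAZ12.3i, 367.6 to 380.2 in MYAZ12.3i_NDI1 and 715.3 to 749.5 in MYAZ6.6g, against 1147.5 to 1175 in MYAZ16.1e and 1016 to 2464 over the lineage. The part of either list in the values of Axin2, Wnt10a or Wnt6 was not tested. Nkd1, on chromosome 8 (88521354 to 88594884, + strand), had 39 counts in all and at most 6 in one library. It was counted in 8 of 9 MYAZ control libraries and in 6 of 21 of the lineage, and it was too low to be tested. It shares its strand with Gm45496.

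On the nuclear side, Tcf7 separated the groups of lines and Lef1 was not detected. Tcf7 lies on chromosome 11 (52252371 to 52283014, - strand) and encodes TCF1. It gave 361, 403 and 648 counts in MYAZ16.1e, 691, 596 and 678 in MYAZ12.3i, and 397, 401 and 430 in MYAZ6.6g. Myc310 gave 42, 14 and 19 counts, LM1 35, 33 and 30, LM2 27, 35 and 50, and LM3 232, 254 and 212. LM1-LM gave 44, 46 and 30, LM2-LM 89, 98 and 115, and LM3-LM 82, 84 and 80. The highest lineage library, at 9.82 CPM, lay below the lowest MYAZ library, at 16.8 CPM. Within the lineage LM3 stood apart, and Tcf7 was higher there than in Myc310 by 3.18 ± 0.18 on the log2 scale (edgeR adjusted p = 1.1e-16). The difference of LM2 from Myc310 was 0.60 ± 0.25 (0.0474), a call lost with a replicate block (0.0542) and without replicate 2 (0.376) or 3 (0.619). LM1 over Myc310 did not pass (0.52 ± 0.25; 0.124), except without replicate 1 (0.93; 0.0172). Tcf7 overlaps A630014C17Rik on the other strand, and whether strand was used in counting is not given in the sources used here.

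Lef1, on chromosome 3 (131110471 to 131224356, + strand), had 1 count in all 45 libraries, in MYAZ12.3i. Ctnnb1, the gene of beta-catenin on chromosome 9 (120929216 to 120960507, + strand, overlapped by Ulk4 on the other strand), was by far the most abundant member, with 10588 to 21506 counts. In control medium it stood at 559.3 to 569 CPM in MYAZ16.1e, 846 to 860 in MYAZ12.3i, 720 to 758 in MYAZ6.6g and 537 to 620 in the lineage. It was higher than in MYAZ16.1e by 0.61 ± 0.021 in MYAZ12.3i and by 0.38 ± 0.021 in MYAZ6.6g (edgeR adjusted p = 4.2e-23 and 1.9e-17). Per kilobase of exon, the means in MYAZ12.3i were 164.4 CPM for Ctnnb1, 10.5 for Tcf7, 6.66 for Znrf3, 2.06 for Wnt10a, 1.85 for Wnt4 and 0.408 for Wnt9a, against 0.0276 for Axin2. In LM2, Wnt10a at 9.89 CPM per kilobase exceeded Znrf3 at 3.81 and Tcf7 at 0.614.

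The calls between lines are read against those over all genes. Of the 7 members tested among the control libraries, 7 were called between MYAZ12.3i and MYAZ16.1e, where 65.6% of all genes were called. The numbers were 5 between MYAZ6.6g and MYAZ16.1e (58.6% of all genes), and 5 between MYAZ12.3i and MYAZ6.6g (45.5%). Over Myc310, 2 were called in LM1 (32.9%), 4 in LM2 (45.6%) and 3 in LM3 (45.6%), and 2 between LM1-LM and LM1 (10.9%), Wnt10a and Ctnnb1. Axin2 is among the members called in each comparison of MYAZ lines, and nothing is read from its call. Wnt10a, at the floor in Myc310, is among those called in LM1, LM2 and LM3 over Myc310, and nothing is read from those calls. Ctnnb1 in LM3 over Myc310 did not pass (-0.045 ± 0.021; edgeR adjusted p = 0.0738), but passed in 4 of 9 alternatives, under RLE (0.0360) and upper-quartile (0.0239) normalization, with at least 10 counts in every library (0.0309) and with DESeq2 (0.0171). The log2 fold change of Ctnnb1 in LM1-LM over LM1 was -0.084 ± 0.021 (edgeR adjusted p = 0.00531), a call lost without the low-count filter (0.0629) and without replicate 1 (0.0709) or 3 (0.180). In each comparison with Myc310 and between LM1-LM and LM1, 2 of the 7 were at the floor. These comparisons share libraries, those of Myc310 in particular. Of the 7, Tcf7 and Wnt4 were lower in all 21 lineage control libraries than in all 9 MYAZ control libraries and none was higher. Of all genes, 11.6% were lower and 9.63% higher in this way, and since the members were chosen on this contrast nothing is read from the count.

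In the line labelled NDI1, Wnt10a stood above MYAZ12.3i, the line in its name. NDI1 is a yeast NADH dehydrogenase used to restore NADH oxidation in mitochondria. The summed counts of Wnt10a were 3.81 times those of MYAZ12.3i, with the libraries at 17.7 to 20.3 CPM against 4.295 to 5.87. Wnt6 gave 46, 45 and 51 counts against 12, 11 and 13 in MYAZ12.3i, also 3.81 times higher. Ctnnb1 at 763 to 788 CPM lay below the 846 to 860 CPM of MYAZ12.3i. Wnt9a at 0.646 to 1.09 CPM lay below 1.28 to 1.47 CPM. The libraries of Axin2 overlapped between these lines at 4, 9 and 10 counts against 4, 2 and 5, with a ratio of 2.02, and those of Znrf3, Tcf7 and Wnt4 overlapped as well. So 3 of 6 members that passed the filter did not overlap between the lines, where 34.7% of all 12841 genes did not. The contrast was one that chose the set, so nothing is read from the count, and it compares 1 line with 1 other line.

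Under 6 h of cysteine and cystine deprivation, Znrf3, Tcf7 and Ctnnb1 fell in all 4 lines. Wnt9a rose in MYAZ16.1e and Myc310, and Wnt10a in MYAZ16.1e and, in a call lost in 8 of 9 alternatives, in LM1. The rule for the set did not use deprivation. The test covered 13400 genes over 24 libraries in 8 groups. Of the 10 members, 6 could be tested and Axin2, Nkd1, Rnf43 and Lef1 were too low. In MYAZ16.1e 2 of the 6 rose and 3 fell, where 26.6% of all genes rose and 27.1% fell. In Myc310 1 rose and 3 fell (32.8% and 33.9% of all genes). In LM1 1 rose and 3 fell (35.8% and 35.3%), and in LM1-LM 0 rose and 3 fell (36.5% and 35.9%). In each of the 3 lineage lines 1 of the 6 tested was at the floor in both media, Wnt10a in Myc310 and Wnt4 in LM1 and LM1-LM.

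Znrf3 gave the firmest response. In MYAZ16.1e it stood at 37.3, 39.7 and 39.7 CPM in control medium and 31.5, 32.1 and 28.2 CPM when deprived. In LM1 the values were 34.95, 38.4 and 36.7 CPM and then 20.5, 20.6 and 18.7 CPM. No deprived library overlapped a control library of its line, and the same held in Myc310 and LM1-LM. The log2 fold change was -0.36 ± 0.064, -0.53 ± 0.067, -0.85 ± 0.069 and -0.93 ± 0.069 in the order MYAZ16.1e, Myc310, LM1, LM1-LM (edgeR adjusted p = 2.0e-05, 4.1e-08, 2.5e-12 and 2.9e-13). These calls held in all 10 alternatives in each line. The response was larger than in MYAZ16.1e by -0.49 ± 0.094 in LM1 and by -0.57 ± 0.094 in LM1-LM (adjusted p = 5.3e-05 and 5.6e-06), again in all 10 alternatives. The difference of Myc310 from MYAZ16.1e was -0.17 ± 0.093 and did not pass (0.141), except without replicate 3 (-0.26; 0.0351). Over all genes tested, the median absolute log2 fold change was 0.23, 0.37, 0.45 and 0.48 in the same order of lines. A larger response than in MYAZ16.1e was therefore not particular to Znrf3, and a difference beyond that was not tested.

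**Figure D2:**
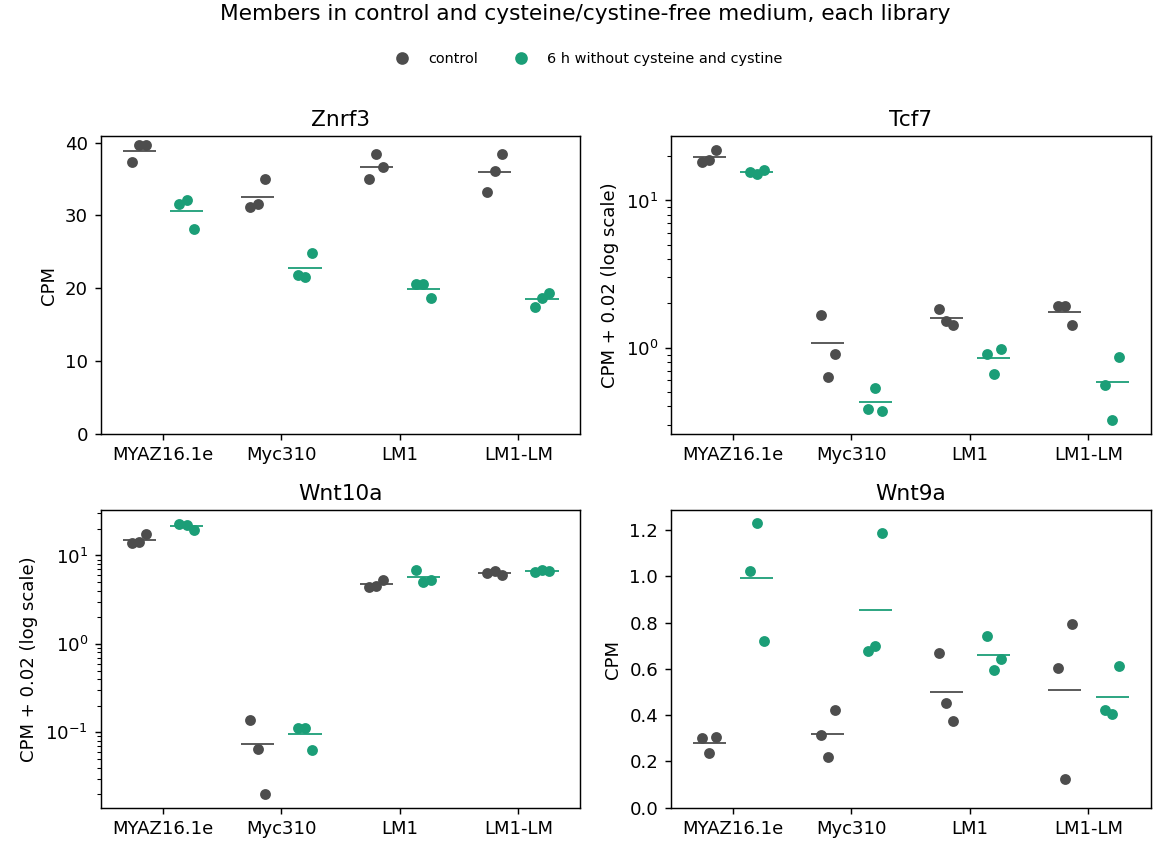
Znrf3, Tcf7, Wnt10a and Wnt9a in each of 3 libraries (points) and their mean (bars) in control and deprived medium, by line; Znrf3 and Wnt9a are CPM from 0, and Tcf7 and Wnt10a are CPM plus 0.02 on a log axis. Deprived libraries of Znrf3 and Tcf7 lie below the controls of their line, and those of Wnt9a lie above them in MYAZ16.1e and Myc310.

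Tcf7 fell from 18.1, 18.9 and 22.0 CPM to 15.54, 15.03 and 16.13 CPM in MYAZ16.1e. In the lineage it fell from a level already low: from 42, 14 and 19 counts to 8, 11 and 8 in Myc310, from 35, 33 and 30 to 19, 14 and 21 in LM1, and from 44, 46 and 30 to 14, 6 and 18 in LM1-LM. Controls and deprived libraries did not overlap in any of the 4 lines. The log2 fold changes were -0.35 ± 0.14, -1.40 ± 0.35, -0.87 ± 0.28 and -1.58 ± 0.29 in the order MYAZ16.1e, Myc310, LM1, LM1-LM (edgeR adjusted p = 0.0346, 0.000713, 0.00686 and 1.8e-05). The call in MYAZ16.1e was lost without replicate 2 (0.0727) or 3 (0.183), and that in Myc310 without replicate 1 (-0.81; 0.110), whose Myc310 control holds the 42 counts. The response exceeded that of MYAZ16.1e by -1.23 ± 0.33 in LM1-LM (0.00195), in all 9 alternatives. The corresponding difference of Myc310, -1.05 ± 0.38 (0.0252), was lost without replicate 1 (-0.40; 0.553) and replicate 3 (0.0567), and that of LM1 did not pass (-0.53 ± 0.31; 0.168).

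Ctnnb1 changed little. Its log2 fold changes were -0.095 ± 0.022, -0.18 ± 0.022, -0.098 ± 0.022 and -0.053 ± 0.022 in the same order of lines, and all passed (edgeR adjusted p = 0.000403, 8.2e-09, 0.000176 and 0.0302). Over the 10 alternatives they ran from -0.11 to -0.088, -0.22 to -0.17, -0.18 to -0.077 and -0.14 to -0.037. The call in LM1-LM was lost without the low-count filter (0.0709) and without replicate 2 (0.281). In Myc310 the libraries moved from 599, 605 and 593 CPM to 537, 529 and 529 CPM. That fall was larger than in MYAZ16.1e by -0.089 ± 0.031 (0.0198), a call lost in 4 of 10 alternatives.

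Of the ligands, Wnt9a gave 6, 5 and 9 counts in control and 22, 26 and 18 in deprived MYAZ16.1e cultures. In Myc310 it gave 8, 5 and 9 and then 15, 15 and 27 counts. Deprived libraries lay above the controls in both lines, by a log2 fold change of 1.78 ± 0.45 and 1.41 ± 0.45 (edgeR adjusted p = 0.00122 and 0.00668), and the call in Myc310 was lost without replicate 3 (0.0547). Each of these control libraries held 9 counts or fewer, so the folds rest on few counts. In LM1, at 13, 10 and 8 counts and then 16, 13 and 14, and in LM1-LM, at 14, 3 and 17 and then 11, 8 and 13, Wnt9a did not pass (0.45 ± 0.44 and -0.028 ± 0.45; 0.376 and 0.971). The LM1-LM response differed from that of MYAZ16.1e by -1.80 ± 0.64 (0.0180), a call lost without replicate 1 (0.163) or 3 (0.0810).

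Wnt10a rose in MYAZ16.1e from 13.7, 14.3 and 17.3 CPM to 22.7, 22.3 and 19.5 CPM, a log2 fold change of 0.49 ± 0.10 (edgeR adjusted p = 0.000176) that held in all 9 alternatives. In LM1 it moved from 4.38, 4.47 and 5.26 CPM to 6.88, 5.02 and 5.24 CPM, and these ranges overlapped. The fold change there, 0.31 ± 0.14, passed (0.0421) but was lost in 8 of 9 alternatives (adjusted p 0.0505 to 0.532), and without replicate 1 it was 0.12. It was kept without replicate 3 (0.0120). In LM1-LM the libraries stood at 6.37, 6.61 and 6.06 CPM and then 6.42, 6.76 and 6.63 CPM (0.092 ± 0.13; 0.532). The LM1-LM response was below that of MYAZ16.1e by -0.40 ± 0.16 (0.0391), which 3 of 9 alternatives lost. Myc310 gave 5 counts in its 3 deprived libraries, at the floor as in control medium. Of its neighbour, Wnt6, the counts fell in LM1 by 1.80 ± 0.27 and in LM1-LM by 2.20 ± 0.28 on the log2 scale (edgeR adjusted p = 9.5e-07 and 3.3e-08), and the values that did not pass were -1.22 ± 0.60 in Myc310 (0.0803) and 0.33 ± 0.26 in MYAZ16.1e (0.288). The difference between the genes was not tested.

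Wnt4 gave 213, 240 and 308 counts in control and 269, 253 and 322 in deprived MYAZ16.1e cultures (log2 fold change 0.20 ± 0.15; edgeR adjusted p = 0.260). It passed when the libraries of that line alone were fitted (0.21; 0.0408). Myc310 gave 3, 1 and 1 and then 4, 3 and 3 counts, and since Wnt4 passed the low-count filter through MYAZ16.1e, no fold or p-value is given for Myc310. LM1 gave 0 counts in control medium and 1, 3 and 0 when deprived, at the floor in both, so no fold is given. The summed counts in deprived medium were 844 in MYAZ16.1e and 10 in Myc310. Rnf43 had 1, 3 and 0 counts in Myc310, 6, 2 and 0 in LM1 and 1, 1 and 3 in LM1-LM in control medium, and 0 in each of their 9 deprived libraries, but these counts are too few to test. Axin2 gave 1, 0 and 3 counts in deprived MYAZ16.1e and 0 in the 9 deprived libraries of the lineage.

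The differences of response from MYAZ16.1e share the MYAZ16.1e libraries. Of the members tested, 2 differed in Myc310, where 40.3% of all genes did, 1 in LM1 (52.2%) and 4 in LM1-LM (54.8%). All 7 of these differences were negative. For Znrf3, Tcf7 and Ctnnb1 this was a larger fall, and for Wnt9a and Wnt10a the lack of a called rise in LM1-LM. Over all genes the share of calls that were higher was 49.2% for Myc310, 51.5% for LM1 and 51.7% for LM1-LM, and upper-quartile scaling moved it to 42.0%, 41.0% and 41.6%. In LM1, Ctnnb1 also passed under upper-quartile scaling (-0.083; edgeR adjusted p = 0.0223), and Wnt9a when only the libraries of the compared lines were fitted (-1.35; 0.0450).

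The other genes of the pathway, from lists drawn up with earlier results known, moved in both directions. Of all genes tested, 26.6% rose and 27.1% fell in MYAZ16.1e, 32.8% and 33.9% in Myc310, 35.8% and 35.3% in LM1, and 36.5% and 35.9% in LM1-LM, and the counts of each list stand beside these shares. The list of beta-catenin and its nuclear partners had 12 tested genes, of which Tcf7 and Ctnnb1 are described above. Of the other 10, 4 fell in MYAZ16.1e, 7 in Myc310 and 9 in both LM1 and LM1-LM, and 1 rose in each line. Their median log2 fold change was -0.061, -0.44, -0.73 and -0.61 in that order, against 0.00, -0.013, -0.0046 and 0.00 over all genes tested. With the members included, the counts were the same under RLE and upper-quartile normalization. The list holds both co-activators and inhibitors of beta-catenin, so no direction of the pathway is read from these counts. The gene that rose was Tcf7l2, which encodes TCF4, with log2 fold changes from 0.32 ± 0.11 in MYAZ16.1e to 0.52 ± 0.095 in LM1, and 0.41 ± 0.094 and 0.47 ± 0.096 for Myc310 and LM1-LM. Its relative Tcf7 fell in the same libraries. Ctnnbip1, the inhibitor that keeps beta-catenin from TCF, fell by 0.38 ± 0.067 in MYAZ16.1e and by 1.20 ± 0.072 in LM1. The 2 most abundant of the other 10 were co-activator genes. Pygo2 stood at -0.14 ± 0.044 in MYAZ16.1e and -0.46 ± 0.048 in LM1. Bcl9l stood at 0.035 ± 0.032 and -0.32 ± 0.032, the former value not passing (edgeR adjusted p = 0.390).

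**Figure D3:**
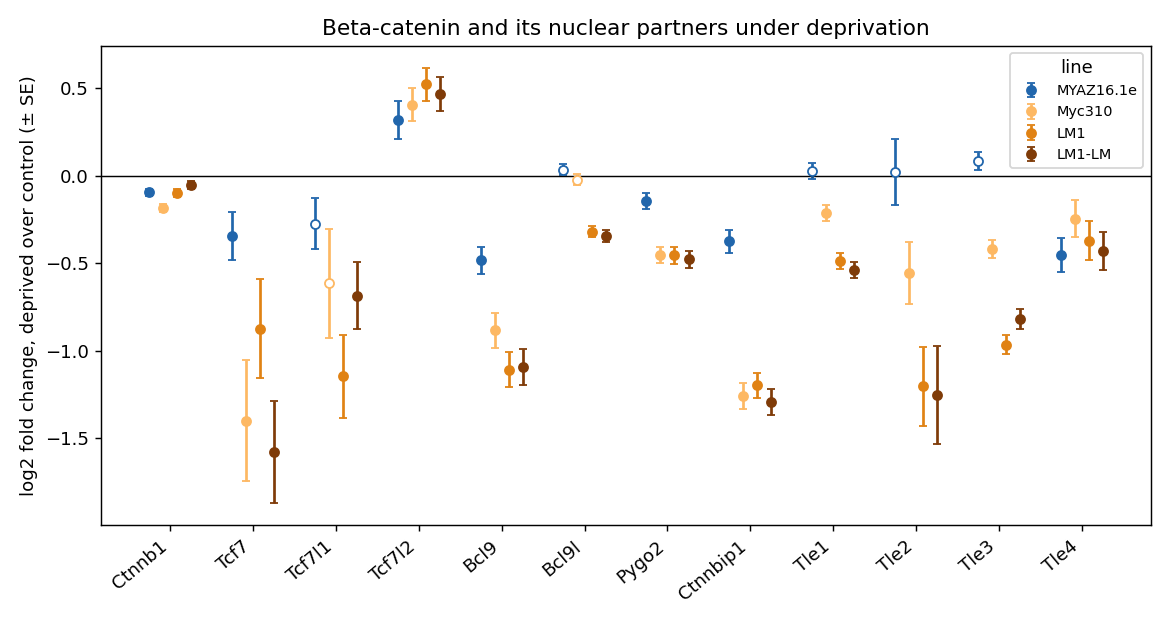
Log2 fold changes with standard errors of the 12 tested genes for beta-catenin and its nuclear partners, deprived over control, in 4 lines; filled points passed an edgeR adjusted p of 0.05. Tcf7l2 lies above 0 in every line, and in LM1 and LM1-LM the other 11 lie below 0.

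Of the 16 listed receptor genes, 14 were tested in MYAZ16.1e, where 2 rose and 5 fell (26.6% and 27.1% of all genes). In Myc310 2 of 13 rose and 7 fell, in LM1 2 of 11 rose and 6 fell, and in LM1-LM 1 of 12 rose and 7 fell, where 32.8 to 36.5% of all genes rose and 33.9 to 35.9% fell. Lrp5, a co-receptor, fell by 0.41 ± 0.032 in MYAZ16.1e and 1.34 ± 0.030 in LM1-LM. Fzd4 rose by 1.15 ± 0.13 and 1.67 ± 0.10 in the same lines. Fzd9 fell from 115 counts in the control libraries of Myc310 to 11 in the deprived ones, and from 99 to 5 in LM1. In the R-spondin axis, whose receptors spare Frizzled by sequestering ZNRF3 and RNF43, 3 genes were tested: Znrf3, Lgr4 and Lgr6. Lgr4 fell in every line, by 0.36 ± 0.093 in MYAZ16.1e and 1.93 ± 0.13 in LM1-LM, while Lgr6 rose, by 0.57 ± 0.11 and 1.39 ± 0.12.

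Among the ligand genes, 16 of 19 were listed. Leaving out the members Wnt10a, Wnt9a and Wnt4, 4 were tested in MYAZ16.1e, where Wnt7b rose (0.23 ± 0.069) and 0 fell, against 26.6% and 27.1% of all genes. In Myc310 1 of 3 fell, in LM1 2 of 4 and in LM1-LM 3 of 4, and 0 rose, against 32.8 to 36.5% of all genes in either direction. Wnt7b was the most abundant of them, with 1437 to 1800 counts in control Myc310 libraries and 155 to 196 in MYAZ6.6g. Wnt5b fell in LM1 from 70 counts over the control libraries to 10 in the deprived ones. For ligand secretion, Porcn, the acyltransferase that lipidates Wnt proteins, rose in every line by 0.75 ± 0.13 to 1.10 ± 0.091. Wls, which carries them to the surface, rose in Myc310, LM1 and LM1-LM by 0.21 ± 0.030 to 0.32 ± 0.028, and in MYAZ16.1e it stood at 0.021 ± 0.031 (edgeR adjusted p = 0.606).

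In the destruction complex and Dishevelled list, 11 genes were tested in each line, of which 6, 5, 5 and 7 rose and 3, 3, 1 and 1 fell, in the order MYAZ16.1e, Myc310, LM1, LM1-LM. Of all genes 26.6 to 36.5% rose and 27.1 to 35.9% fell. RLE gave 6 and 1 in LM1-LM. Upper-quartile normalization gave 6 higher and 2 lower in MYAZ16.1e, 4 and 3 in Myc310, 5 and 2 in LM1, and 5 and 3 in LM1-LM. Csnk1a1, a kinase that primes beta-catenin for degradation, rose by 0.16 ± 0.021 in MYAZ16.1e and 0.57 ± 0.021 in LM1-LM. Tnks, whose product marks AXIN for degradation, rose by 0.36 ± 0.043 and 1.20 ± 0.045, and its relative Tnks2 fell by 0.10 ± 0.021 and 0.18 ± 0.021. Of 13 listed secreted antagonists 2 could be tested, and Sfrp1 fell in every line, by 0.86 ± 0.21 in MYAZ16.1e and 2.35 ± 0.45 in LM1. Notum, which removes the lipid from Wnt proteins, rose in MYAZ16.1e (0.75 ± 0.15) and fell in LM1 (-0.45 ± 0.14).

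Among 11 other Wnt target genes, 3 rose in each line while 2, 2, 3 and 2 fell, out of 7, 6, 6 and 6 tested, against 26.6 to 36.5% of all genes higher and 27.1 to 35.9% lower. Under RLE and upper-quartile normalization 3 fell in LM1-LM. Apcdd1, an inhibitor at the receptor, fell by 0.71 ± 0.052 in MYAZ16.1e and 2.43 ± 0.071 in LM1-LM. Ccnd1, the gene of cyclin D1, fell by 0.080 ± 0.028 and 0.68 ± 0.028, whereas Cd44 rose in LM1-LM (0.55 ± 0.032) and did not pass in MYAZ16.1e (-0.064 ± 0.032; edgeR adjusted p = 0.0959). Tnfrsf19 rose from 206 to 1109 counts over the libraries of MYAZ16.1e and from 1 to 56 in LM1. In the cadherin and catenin list without Ctnnb1, 3 of 5 rose and 1 fell in MYAZ16.1e, 3 of 5 rose and 2 fell in Myc310, and 3 of 4 rose and 1 fell in both LM1 and LM1-LM, beside the same shares of all genes. Ctnna1 rose by 0.15 ± 0.022 in MYAZ16.1e and 0.54 ± 0.022 in LM1-LM, and Jup, which encodes plakoglobin, rose in MYAZ16.1e (0.41 ± 0.052) and fell in LM1-LM (-1.09 ± 0.044). Of the leukocyte markers 2 could be tested, and Cd68 rose in Myc310, LM1 and LM1-LM by 0.24 ± 0.094 to 0.47 ± 0.10, though not in LM1-LM under upper-quartile normalization. The other, Itgam, did not pass in any line and stood at 0.25 ± 0.42, -0.17 ± 0.47 and -0.83 ± 0.53 there. Of the epithelial markers, 4 of 6 tested rose in MYAZ16.1e, 3 of 4 in Myc310, 3 of 4 in LM1 and 3 of 5 in LM1-LM (2 of 5 under upper-quartile normalization), and 1 fell in LM1 and in LM1-LM. Their summed level was 1383 to 1419 CPM in deprived LM1, against 1105 to 1134 in control medium, and it was higher in the deprived libraries of the other 3 lines as well. Of 6 tested fibroblast markers, 1 rose and 2 fell in both LM1 and LM1-LM. Their summed level in the deprived libraries was 10.8 to 11.7 CPM in LM1, against 15.6 to 17.8 in control medium, and 28.7 to 31.5 in LM1-LM, against 59.2 to 65.5. It was 15.1 to 17.9 against 12.9 to 16.7 CPM in MYAZ16.1e, and 2.68 to 2.90 against 1.73 to 2.20 CPM in Myc310. The part of these markers in the responses of the members was not tested. Cdh3, the gene of P-cadherin, gave 0 counts in control Myc310 and 38 over its 3 deprived libraries, and 3 and 48 in LM1.

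The genes most like Axin2 and Wnt10a were sought by Pearson correlation of log2 CPM over the 15 group means, among the 9091 genes whose mean log2 CPM reached 3 or more. For Axin2 they were Cotl1 (r = 0.891), Oard1 (0.882), Meis2 (0.881), Tnrc6b (0.873) and Heg1 (0.870). For Wnt10a they were Fkbp10 (0.862), Rbm43 (0.835), Camk1d (0.830), Btrc (0.811), which encodes the F-box protein that recognises phosphorylated beta-catenin, and a gene without a symbol (0.800). The points share libraries and lines of common descent, and most Axin2 means are at the floor, so these values describe the 15 groups only.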

How the data were processed

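Polyadenylated RNA of 45 cultures was sequenced from directional (strand-marking) libraries. According to the study's methods and the submitters' processing notes, the authors ran an nf-core workflow with STAR for alignment and RSEM for quantification on GRCm38. The deposited table holds unnormalized counts, 1 whole number for each gene and library. Versions of STAR and RSEM and the strand setting are not given in the sources used here. All columns were mapped to a sample by their library name.

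Counts were analysed in R 4.3.3 with edgeR 4.0.16 (TMM scaling, filterByExpr, quasi-likelihood test, Benjamini-Hochberg adjustment over all genes, threshold 0.05). A deprivation model held 24 libraries in 8 groups (13400 genes), and a subtype and a line model held the 30 control libraries without the NDI1 line (13795 genes each), giving 16 comparisons. Standard errors are the log2 fold change divided by the square root of F. Ratios of summed counts over scaled library sizes carry exact binomial 95% intervals, which cover counting error only. Logarithms of CPM used a prior count of 2. Counts of 3 or fewer in each library of the groups compared gave no fold. Positions and exon lengths are from GENCODE vM21, promoter windows from RefSeq (GRCm38.p6). The fits were tested on simulated data.

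The members and lists were chosen with earlier results of these data known. Named genes were drawn from the members, the 5 genes most like Axin2 and Wnt10a, marker genes and, by a rule, each list. The rule took the 2 most abundant tested genes and the largest mean rise and fall called in at least 2 of the 4 deprived lines. Not every gene it gave is named in the text, and Ptk7 and Ctnnd1 are among those left out. Wnt3a and the comparison of Wnt6 with Wnt10a were chosen after their values were seen. Alternatives were RLE and upper-quartile normalization, other low-count filters, DESeq2 1.42.0, a replicate block, leaving out each replicate number or lung-derived line, fits on the compared libraries alone, and counts summed per line. Replicate numbers did not pair cultures: deviations from group means of same-numbered control and deprived cultures correlated at -0.0563 to 0.0450.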

Additional observations from a re-analysis of the deposited data

Results flagged for a closer look

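Responses to deprivation that differed from that of MYAZ16.1e by an interaction test (edgeR, adjusted p) are listed here. Tcf7 differed in Myc310 by -1.05 on the log2 scale and in LM1-LM by -1.23. Znrf3 differed in LM1 by -0.49 and in LM1-LM by -0.57. Ctnnb1 differed in Myc310 by -0.089, Wnt9a in LM1-LM by -1.80 and Wnt10a in LM1-LM by -0.40. These comparisons share the MYAZ16.1e libraries. The median absolute response over all genes was also larger in Myc310, LM1 and LM1-LM than in MYAZ16.1e, as given above.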

How the results depend on the processing

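Of 837 values of single members under an alternative, 757 kept their direction and side of the threshold, 51 lost a call, 13 gained one and 16 turned in sign. The causes were not tested beyond what each alternative leaves out.

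The number of members past the threshold varied. Asking for at least 10 counts in every library left 2 members to test under deprivation and 3 between lines, and gave 2 calls under deprivation in each of MYAZ16.1e, Myc310 and LM1, 1 for the difference of response of Myc310 and 1 for that of LM1-LM, 0 for LM over Myc310, 3, 2 and 3 for MYAZ12.3i over MYAZ16.1e, MYAZ6.6g over MYAZ16.1e and MYAZ12.3i over MYAZ6.6g, and 1, 2 and 1 for LM1 over Myc310, LM2 over Myc310 and LM1-LM over LM1. With no filter beyond 1 count, 1 was called for the Myc310 difference of response, 1 for LM1 over Myc310 and 1 for LM1-LM over LM1. The difference of response of LM1 gave 2 with upper-quartile normalization and 2 on the compared libraries only. LM over Myc310 gave 2 with DESeq2, 0 with counts summed per line, 2 without LM1 and 2 without LM2, and LM-LM over LM gave 1 without LM3. Leaving out 1 replicate number gave 0 to 1 for the Myc310 difference, 2 to 3 for the LM1-LM difference, 1 to 2 for LM1 over Myc310 and 0 to 1 for LM1-LM over LM1.

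The number of all genes past the threshold varied as well. For LM over Myc310, 681 genes were called, against 428 with at least 10 counts, 2 with counts summed per line, 1495 without LM1, 451 without LM3, 1286 on these subtypes alone and 188 to 203 without 1 replicate number. For LM-LM over LM, 106 were called, against 65 with no filter, 30 with at least 10 counts, 253 with DESeq2, 0 with counts summed per line, 596 without LM1, 30 without LM2, 181 without LM3, 18 without LM2-LM, 2063 without LM3-LM, 59 on these subtypes alone and 0 to 0 without 1 replicate number. For LM1-LM over LM1, 1504 fell to a range of 885 to 973 without 1 replicate number.

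The directions that turned belonged to values that had not passed the test. The Ctnnb1 difference of response was -0.043 in LM1-LM with upper-quartile normalization, and in LM1 0.010 with no filter and -0.026 to 0.027 without 1 replicate number. Wnt9a under deprivation in LM1-LM ran from -0.41 to 0.23 and LM1-LM over LM1 from -0.62 to 0.42 without 1 replicate number. Znrf3 without 1 replicate number ran from -0.024 to 0.12 for LM3 over Myc310, -0.021 to 0.11 for LM over Myc310, -0.0060 to 0.080 for LM-LM over LM and -0.084 to 0.0017 for LM1-LM over LM1. It was -0.035 for LM over Myc310 without LM1 and -0.015 for LM-LM over LM without LM2. Wnt10a for LM-LM over LM was 0.16 without LM2, and Tcf7 was 0.97 without LM3.

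Replicate numbers did not pair cultures. With a replicate block, LM-LM over LM gave 68 genes, Wnt9a for LM1-LM over LM1 turned to -0.018, and 2 member calls were lost, Wnt10a under deprivation in LM1 (edgeR adjusted p = 0.0505) and Tcf7 in LM2 over Myc310 (0.0542). The other 84 member values kept their call and direction. Depth limits Axin2, Nkd1, Rnf43 and Lef1, which most libraries gave at 3 counts or fewer.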
